A study of Mus musculus with 4 samples.

Results

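The 38 genes described here are interferon-stimulated genes (ISGs), genes that cells switch on when they meet an interferon. They were taken by symbol from a list of known ISGs and make up 38 of the 22913 genes listed in each library. All 38 were found, and each had a value above 0 in each of the 4 libraries. RNA sequencing measured their expression in dermal white adipose tissue (dWAT), the fat beneath the dermis that surrounds the base of hair follicles (HFs), microdissected from C57BL/6 mice. The groups were old mice in telogen, the resting phase of the hair cycle (OTD), young mice in telogen (YTD), old mice in anagen, the growth phase (OAD), and young mice in anagen (YAD), with anagen induced by plucking the hair. The study's design text gives 18 months for old and 2 months for young mice, whereas the age field of the labels puts YTD at 18 months and OAD at 2 months, and the group names were followed here. Under the age field both telogen libraries would be of 18 months and both anagen libraries of 2 months, so that age and hair phase could not be told apart. Tissue of many mice went into each group, but there is 1 library per group, so no difference below carries an error or a test. Every comparison is one between 2 single libraries.

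Interferons are secreted by cells that sense foreign or misplaced nucleic acid. Type I interferons bind the receptor IFNAR1/IFNAR2, whose kinases JAK1 and TYK2 activate a complex that contains STAT2 and IRF9 and binds the interferon-stimulated response element (ISRE) of target genes, while interferon gamma acts at gamma-activated sites. The products of the target genes sense viral RNA, block viral replication or entry, attack membranes around pathogens and tune the response itself, and many are present at a low level in tissue with no infection, in immune, endothelial, stromal and fat cells alike.

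The letters of the ISRE stand in the promoters of many of these genes. The promoters of 28 of the 38 ISGs were in the RefSeq table used here (build GRCm38.p6), each running from 250 bases before to 50 bases after the start of the gene. The core searched for was GAAA, any 2 bases and GAAA on either strand, with overlapping matches counted, and it was found in 17 of the 28 genes (60.7%) against 1079 of all 27025 genes of the table (3.99%). It was found at 2 or more places in 9 of the 28 genes and in 72 of all genes (0.266%). The gamma-activated site, TTC, any 3 bases and GAA, was found in 7 of the 28 (25%) and in 9.55% of all genes. A match is a stretch of letters and not a measured binding site. The stretches of 90 bases shown here, written 5′ to 3′ on the strand of the gene with the core in capitals, are of genes that the results turn on: Isg15 with a run of 3 overlapping cores, Ifit1, the neighbours Ifit3 and Ifit3b, Bst2, Irgm1, and Stat2, the member with the smallest difference between the hair phases.
Isg15 (chr4:156200841-156200930, minus strand): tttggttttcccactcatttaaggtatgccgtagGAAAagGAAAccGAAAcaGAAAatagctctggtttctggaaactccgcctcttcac
Ifit1 (chr19:34640754-34640843, plus strand): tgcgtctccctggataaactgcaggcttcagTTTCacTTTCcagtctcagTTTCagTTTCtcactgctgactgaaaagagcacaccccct
Ifit3 (chr19:34583350-34583439, plus strand): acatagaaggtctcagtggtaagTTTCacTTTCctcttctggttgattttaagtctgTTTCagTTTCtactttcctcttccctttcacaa
Ifit3b (chr19:34607746-34607835, plus strand): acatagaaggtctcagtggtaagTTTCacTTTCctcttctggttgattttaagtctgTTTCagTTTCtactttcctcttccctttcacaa
Bst2 (chr8:71537550-71537639, minus strand): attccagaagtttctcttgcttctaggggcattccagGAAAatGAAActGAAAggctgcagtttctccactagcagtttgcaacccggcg
Irgm1 (chr11:48871421-48871510, minus strand): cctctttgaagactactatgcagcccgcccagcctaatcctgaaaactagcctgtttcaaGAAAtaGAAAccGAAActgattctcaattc
Stat2 (chr10:128270248-128270337, plus strand): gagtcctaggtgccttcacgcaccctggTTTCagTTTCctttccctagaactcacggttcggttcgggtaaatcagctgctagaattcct

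The stretches of Ifit3 and Ifit3b were identical at 90 of 90 bases. If their transcripts are as alike, which was not compared here, fragments could be shared between the 2 genes. The 3 cores of Isg15 began 78, 72 and 66 bases before the start of the gene, those of Ifit1 began 104 and 85 bases before it, and that of Stat2 began 222 bases before it. The presence of the core was set beside the levels at the end of the account of the hair phases.

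All values are FPKM as deposited, that is fragments of a gene scaled by its listed length and by the depth of the library, so levels of different genes can be set side by side per length. The depth, estimated from the lowest values, was 19200000 to 20500000 fragments per library, a rough figure. Of the FPKM of all genes together, the mitochondrial genome took 52.7% in OTD and 44.7% in YTD, against 18.3% in OAD and 14.4% in YAD. Adipocyte markers were present in every library, with the adipokine gene Adipoq at 427 FPKM in OTD and 281 in YTD, against 103 in OAD and 76.5 in YAD. Their levels ranged widely, in YAD from 5.73 FPKM for Pparg to 822 FPKM for Fabp4. Markers of other tissues were present too, and the skeletal muscle actin gene Acta1 was at 17991 FPKM in OTD and 27442 in YTD, against 4106 in OAD and 2919 in YAD, while the hair shaft keratin gene Krt71 was at 79.8, 137, 4503 and 3502 FPKM in the same order. The libraries of the 2 hair phases therefore differed widely in composition, and fewer cells of a type and less RNA per cell cannot be told apart in such bulk tissue.

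The ISGs spanned a wide range of levels. Summed over the 38 genes, the level was 1125 FPKM in OTD and 874 in YTD, against 268 in OAD and 220 in YAD, and the median member was at 6.96, 5.05, 1.30 and 1.26 FPKM. Ifitm3, whose product blocks the entry of viruses through membranes, alone took 48.2% of this sum in OTD and 44.1% in YTD, against 41.2% in OAD and 41.9% in YAD. Ifitm3, Ifi27 and Bst2 were the 3 highest members, in this order, in every library. At least 10 FPKM was reached by 16 members in OTD, 14 in YTD and 3 in each anagen library, and at least 1 FPKM by 36 members in each telogen and 23 in each anagen library. The sum was 0.191% of all FPKM outside the mitochondrial genome in OTD and 0.127% in YTD, against 0.0403% in OAD and 0.0370% in YAD, the same order as that of the sums themselves.

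**Figure D1:**
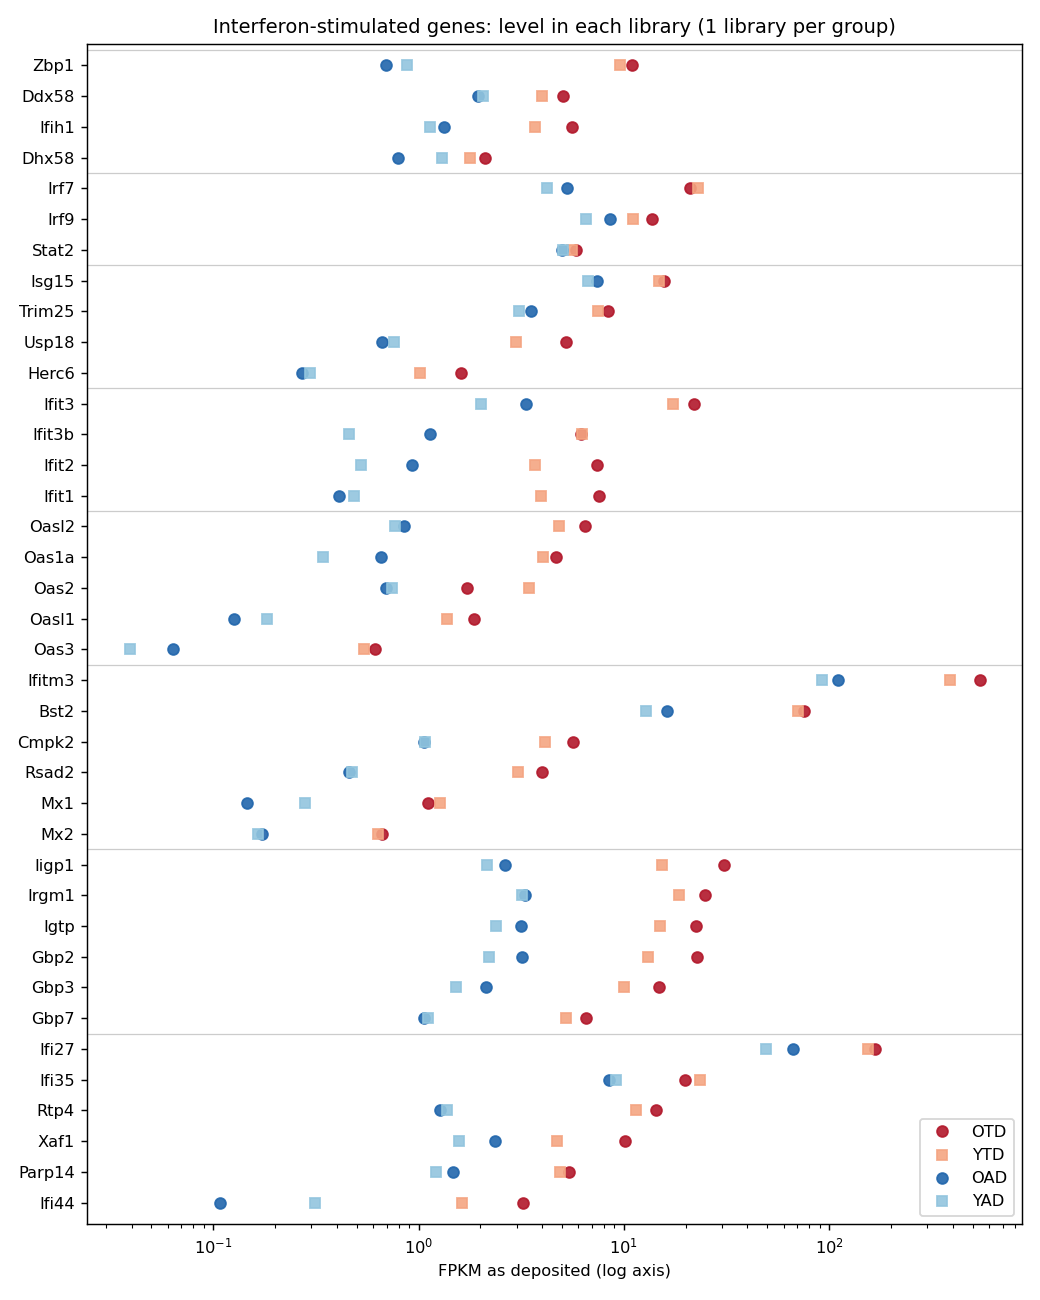
Level of each of the 38 ISGs in the 4 libraries, in FPKM on a log axis, with 1 point per library (circles old, squares young, red shades telogen, blue shades anagen) and genes grouped by role between the grey lines, from the top sensors, transcription factors, ISG15 system, IFIT family, OAS family, other antiviral effectors, GTPases and other interferon-induced genes. In each of the 38 rows both telogen points lie to the right of both anagen points, with Stat2 the closest at 4.996 to 5.83 FPKM. The share of all genes in this order was not counted. In TPM Dhx58, Irf9 and Stat2 turned in young and Stat2 in old mice, and Stat2 in young mice also turned once the mitochondrial genome was left out.

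Anagen was compared with telogen in each age, to see how the ISGs of dWAT moved with the hair cycle. The ISGs were lower in anagen dWAT in both ages. On the scale of log2(FPKM + 1), 30 of the 38 were lower by at least 1 in YAD than in YTD and 31 of the 38 in OAD than in OTD, and none was higher by as much. The median difference of the members was -1.44 in young and -1.76 in old mice, where the median of all genes was 0.02 and 0.01. As deposited, all 38 had both telogen libraries above both anagen libraries, and the share of all genes in this order was not counted. The smallest ratio of the lower telogen to the higher anagen value was 1.12, for Stat2. Dhx58, Irf9 and Stat2 in young and Stat2 in old mice turned in TPM. Stat2 in young mice also turned once the mitochondrial genome was left out.

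Of all 17622 genes tested in young mice, 16.7% were lower and 16.1% higher in anagen by at least 1, and of all 17712 in old mice 15.6% were lower and 16.1% higher. The members' shares were 78.9% lower in young and 81.6% lower in old mice. Of the 38, 29 were lower by at least 1 in both ages, and the share of all genes lower in both was not counted. Oas2 was lower by as much in young mice only, Ddx58 and Herc6 in old mice only, and Dhx58, Irf9, Stat2, Mx1, Mx2 and Oas3 in neither. These sets rest on a threshold. Just inside it lay Ifi44 at -1.005, Oasl1 at -1.006 and Isg15 at -1.05 in young mice, and Isg15 at -1.002, Herc6 at -1.04 and Ddx58 at -1.04 in old mice. Just outside it lay Mx1, at -0.83 in young and -0.88 in old mice. With the mitochondrial genome left out, Dhx58 and Mx1 were lower by at least 1 in old mice. The count also depended on the scaling between libraries. Rescaled to TPM, in which the values of each library add up to the same sum, all genes shifted by a median of 0.45 in young and 0.32 in old mice, 17 and 24 members were lower by at least 1, the members' medians were -0.85 and -1.29, and Stat2 was higher in anagen in both ages. Calls over all genes were 2829 higher and 2938 lower in young mice as deposited but 5891 and 1274 in TPM, and 2854 and 2759 in old mice as deposited but 4923 and 1502 in TPM. Relative to the median of all genes, the members' median was -1.45 as deposited and -1.30 in TPM in young mice, and -1.77 and -1.60 in old mice.

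**Figure D2:**
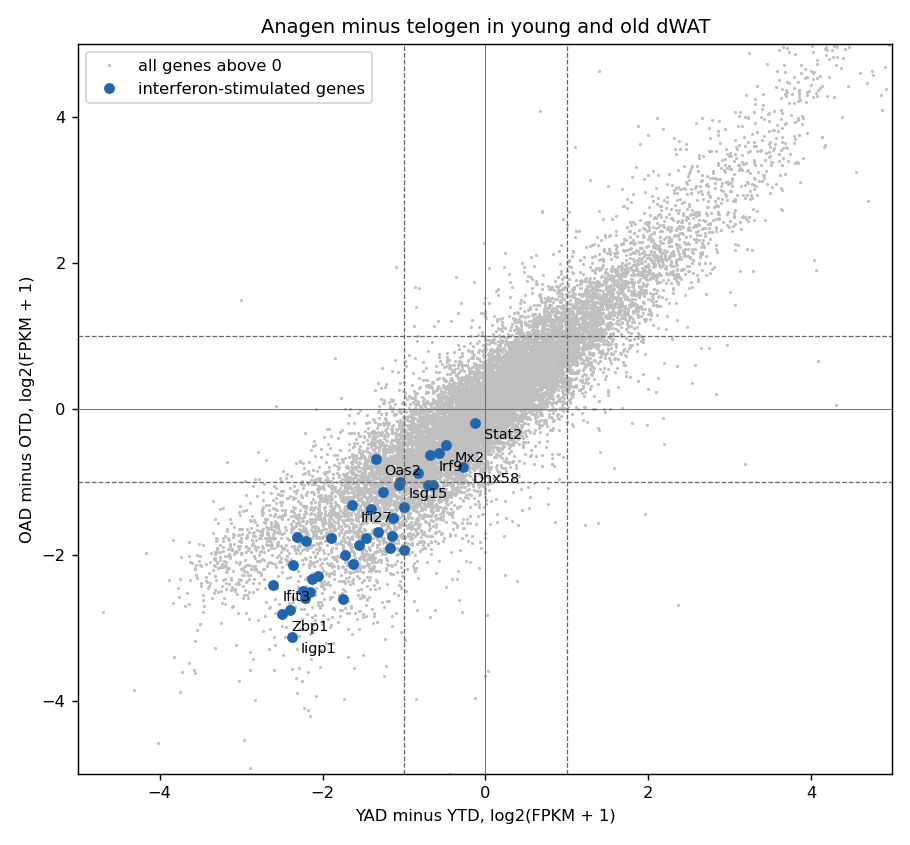
Difference between anagen and telogen on the log2(FPKM + 1) scale in young mice (x axis) and old mice (y axis), for all genes with a value above 0 in any library (grey; differences beyond 5 in size are not drawn) and for the 38 ISGs (blue), with dashed lines at a difference of 1. All 38 blue points lie below and to the left of 0, from Stat2 at -0.13 and -0.19 to Iigp1 at -2.37 and -3.12. Stat2 turned in TPM, as did Dhx58 and Irf9 in young mice, and Stat2 in young mice also turned once the mitochondrial genome was left out.

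The sensors of viral nucleic acid were among the lower genes, unevenly. Zbp1, a sensor of Z-form nucleic acid that can start cell death, was at 10.9 FPKM in OTD and 9.56 in YTD, against 0.692 in OAD and 0.877 in YAD. Its difference between the phases was -2.82 in old and -2.49 in young mice. Ifih1, which encodes the RNA sensor MDA5, was at 5.59 FPKM in OTD and 3.69 in YTD, against 1.33 in OAD and 1.14 in YAD, with differences of -1.50 and -1.13. Ddx58, which encodes the RNA sensor RIG-I, was at 5.04, 3.98, 1.94 and 2.06 FPKM in the same order of libraries, a difference of -1.04 in old and -0.70 in young mice. The third RNA sensor of this family, Dhx58, differed by -0.79 and -0.27, so the RNA sensors of 1 family ranged widely, and all 3 had a larger difference in old than in young mice. In TPM, Ifih1 in young mice, at -0.58, and Ddx58 in old mice, at -0.57, were under 1.

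The transcription factors of the response stood apart from one another. Irf7, the factor that amplifies type I interferon production, was at 21.0 FPKM in OTD and 23.0 in YTD, against 5.30 in OAD and 4.21 in YAD, a difference of -1.80 in old and -2.20 in young mice. The 2 members that carry the interferon signal to the ISRE did not reach the threshold. Irf9 was at 13.8 FPKM in OTD and 11.1 in YTD, against 8.55 in OAD and 6.57 in YAD, and Stat2 at 5.83, 5.61, 4.996 and 5.03 FPKM, so Stat2 was at nearly 1 level in all 4 libraries as deposited. In TPM, the difference of Stat2 was 0.58 in young and 0.33 in old mice, and that of Irf9 0.08 and -0.06. The listed span of Irf9 shares 123 bases with its neighbour Rnf31, and that of Irf7 shares 45 bases with Phrf1.

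The ISG15 system attaches the ubiquitin-like protein ISG15 to other proteins and removes it. Isg15 itself was at 15.8 FPKM in OTD and 14.9 in YTD, against 7.37 in OAD and 6.67 in YAD, a difference of -1.002 in old and -1.05 in young mice. Usp18, whose product removes ISG15 and restrains the type I receptor, was at 5.24 FPKM in OTD and 2.97 in YTD, against 0.660 in OAD and 0.758 in YAD, with differences of -1.91 and -1.17. The difference of Usp18 was thus larger than that of Isg15 in both ages. Herc6, the main mouse ligase for ISG15, was low throughout, at 1.61, 1.02, 0.271 and 0.295 FPKM. Trim25, a ubiquitin ligase that acts on RIG-I, was at 8.34 FPKM in OTD and 7.51 in YTD, against 3.53 in OAD and 3.10 in YAD. In TPM the difference of Isg15 was -0.29 in young and -0.44 in old mice and that of Trim25 -0.36 and -0.53, and Usp18 in young mice, at -0.69, and Herc6 in old mice, at -0.78, were under 1 too. Without the genes of the mitochondrial genome Isg15 and Trim25 were under 1 in young mice.

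The IFIT family, whose proteins bind viral RNA, was lower in anagen at each of its 4 members, in both ages. The 4 genes lie next to each other on chromosome 19. Ifit3 was the highest of them, at 22.1 FPKM in OTD and 17.3 in YTD, against 3.35 in OAD and 2.01 in YAD, and its difference was -2.61 in young and -2.41 in old mice. Ifit1 was at 7.56 FPKM in OTD and 3.97 in YTD, against 0.411 in OAD and 0.483 in YAD, so that the ratio of telogen to anagen was 18.4 in old and 8.22 in young mice. Ifit2 was at 7.40, 3.69, 0.930 and 0.522 FPKM in the same order. Ifit3b was at 6.17 FPKM in OTD and 6.26 in YTD, against 1.13 in OAD and 0.458 in YAD. The values of Ifit3 and Ifit3b are both uncertain, since fragments could be shared between them if their transcripts are alike. The median difference of the family was -2.03 in young and -2.26 in old mice.

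The OAS family, enzymes that make the 2′-5′ oligoadenylates which activate RNA degradation and their relatives, had medians of -1.35 in both ages. Its 5 members lie on chromosome 5. Oasl2 was at 6.43 FPKM in OTD and 4.83 in YTD, against 0.851 in OAD and 0.766 in YAD, Oas1a at 4.66, 4.02, 0.655 and 0.342, and Oasl1 at 1.86, 1.37, 0.126 and 0.182. In these 3 genes anagen was lower by at least 1 in both ages as deposited, though Oasl1 in young mice was at -0.997 by the median of ratios and at -0.74 in TPM. Oas2 had another order, at 1.73 FPKM in OTD and 3.43 in YTD, against 0.694 in OAD and 0.741 in YAD, and its difference was -0.69 in old and -1.35 in young mice, the latter -0.86 in TPM. Oas3 was low in every library, from 0.0393 to 0.616 FPKM, with YAD under the level that 3 fragments give (0.0436 FPKM). Its ratio in young mice, at least 12.4-fold higher in YTD taken against that level, was wide, although its difference on the log2(FPKM + 1) scale was only -0.57, because that scale understates differences of low genes.

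The other antiviral effectors included the highest member and some of the lowest. Ifitm3 was at 542 FPKM in OTD and 386 in YTD, against 110 in OAD and 91.96 in YAD, a difference of -2.29 in old and -2.06 in young mice. Bst2, which encodes tetherin and holds budding virus at the cell surface, was at 75.3 FPKM in OTD and 70.6 in YTD, against 16.3 in OAD and 12.9 in YAD, with differences of -2.14 and -2.37. Both genes were thus 4.19-fold to 5.49-fold higher in telogen. Rsad2, which encodes viperin, was at 3.98 FPKM in OTD and 3.07 in YTD, against 0.460 in OAD and 0.475 in YAD. Its neighbour on chromosome 12, the nucleotide kinase gene Cmpk2, was at 5.62, 4.15, 1.06 and 1.07 FPKM, so the 2 neighbours had the same order of libraries, and in TPM Cmpk2 in young mice was at -0.77. The dynamin-like antiviral GTPases Mx1 and Mx2 were low, from 0.147 to 1.27 FPKM, and their ratios of telogen to anagen were 7.61 and 3.82 in old and 4.53 and 3.84 in young mice.

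The guanylate-binding proteins and immunity-related GTPases, which attack the membranes around intracellular pathogens and are strongly induced by interferon gamma, were lower in anagen by at least 1 at all 6 genes in both ages as deposited, with medians of -2.18 in young and -2.50 in old mice. In TPM the medians were -1.50 and -1.97, with Gbp7 in young mice at -0.996, where those of the IFIT family were -1.58 and -1.78, so that the order of the 2 groups in young mice turned on the scaling. Iigp1 was at 30.6 FPKM in OTD and 15.3 in YTD, against 2.64 in OAD and 2.15 in YAD, a difference of -3.12 in old and -2.37 in young mice. Irgm1, a regulator of the other immunity-related GTPases, was at 24.9, 18.5, 3.29 and 3.20 FPKM, and Igtp at 22.5, 15.0, 3.16 and 2.38 FPKM. These 3 genes therefore were 5.78-fold to 11.6-fold higher in telogen. Gbp2 was at 22.8 FPKM in OTD and 13.2 in YTD, against 3.18 in OAD and 2.19 in YAD. Gbp3 was at 14.8, 10.04, 2.14 and 1.53 FPKM, and Gbp7 at 6.53, 5.22, 1.06 and 1.11 FPKM. The listed span of Igtp shares 7974 bases with Irgm2, and those of Gbp3 and Gbp7 lie inside that of Gbp2b, so fragments of these neighbours may have been split between them.

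The remaining 6 members were lower by at least 1 in anagen in both ages as deposited. In TPM only Rtp4 of the 6 was so in both ages, while Ifi27, Ifi35 and Parp14 were under 1 in both, at -0.47 to -0.84 in young and -0.56 to -0.92 in old mice, and Ifi44 and Xaf1 were under 1 in young mice, at -0.67 and -0.55. By the median of ratios Ifi44 in young mice was at -0.997. Ifi27, which encodes a small membrane protein, was at 168 FPKM in OTD and 155 in YTD, against 66.5 in OAD and 49.1 in YAD. Rtp4, which encodes a chaperone for receptors, was at 14.4, 11.5, 1.27 and 1.38 FPKM, with differences of -2.76 in old and -2.40 in young mice. Ifi35 was at 19.8 FPKM in OTD and 23.4 in YTD, against 8.45 in OAD and 9.20 in YAD. Ifi27 and Ifi35 kept more of their telogen level than Rtp4 did in both ages. Xaf1, which promotes cell death, was at 10.2, 4.72, 2.34 and 1.58 FPKM, and Parp14, an ADP-ribosyltransferase, at 5.40, 4.88, 1.48 and 1.21 FPKM. Ifi44 was at 3.23 FPKM in OTD and 1.64 in YTD, against 0.108 in OAD and 0.313 in YAD, where the OAD value lies under the level of 3 fragments (0.115 FPKM), so that Ifi44 was at least 28.0-fold higher in OTD than in OAD.

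The difference between the phases was larger in old than in young mice for 26 of the 38 ISGs and smaller for 12. Since both ages enter this count with 1 library each, it was not tested, and it was not made over all genes. The 17 genes with the ISRE core in their promoter had a median difference of -1.90 in young and -1.87 in old mice, and the 11 genes without it -1.15 and -1.69. Stat2 carried the core and differed by -0.13 and -0.19, and Irf7 differed by -2.20 and -1.80 without it. For the 10 genes whose promoter is not in the table the medians were -1.38 and -1.34.

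Other genes of the pathway differed between the phases in part only. Of 39 further ISGs looked up by name, 38 were above 0, and 28 of these were lower in anagen by at least 1 in young and 31 in old mice, with none higher. Ifi27l2a, a relative of Ifi27, was at 960 FPKM in OTD and 1351 in YTD, against 79.7 in OAD and 112 in YAD, above every member in telogen. Cxcl10, a chemokine gene induced by interferon gamma, was at 7.33, 4.85, 0.574 and 0.459 FPKM, the last under the level of 3 fragments (0.501 FPKM). Ifi30 had another pattern, at 30.9 FPKM in OTD and 20.2 in YTD, against 33.1 in OAD and 32.7 in YAD. Of 12 genes that act in the induction of interferon, 3 were lower by at least 1 in young and 5 in old mice, with medians of -0.57 and -0.63, while Irf3 was higher by 0.90 and 0.65. Of 8 negative regulators, 4 were above and 4 below 0 in both ages and 2 were lower by at least 1 in each (Trex1 and Samhd1 in young, Socs3 and Samhd1 in old mice), with medians of -0.28 and -0.25, and the phosphatase gene Ptpn2 was higher by 0.73 and 0.90. Of the receptor kinases, Jak1 and Jak2 were lower by at least 1 in anagen in both ages, and Tyk2 was higher by 0.46 in old and 0.43 in young mice.

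The receptors split by chain. Ifnar1, a chain of the type I receptor, was at 9.34 FPKM in OTD and 8.64 in YTD, against 7.84 in OAD and 8.52 in YAD, while its partner Ifnar2 was at 36.3, 23.1, 9.68 and 7.89 FPKM, so only the latter was lower in anagen by at least 1. The interferon gamma receptor chain Ifngr1 was at 55.3, 40.4, 13.1 and 14.9 FPKM, a difference of -2.00 in old and -1.38 in young mice. Ifnlr1, the receptor chain for interferon lambda, which epithelial cells carry, went the other way, at 0.0140 FPKM in OTD and 0.0891 in YTD, against 2.87 in OAD and 3.14 in YAD. Its telogen values lay under the level of 3 fragments, 0.0919 FPKM in OTD and 0.0971 in YTD. The interferon genes themselves were hardly seen: 18 of 21 were listed at 0 in all 4 libraries, Ifnb1 was at 0.107 FPKM in YTD alone, and Ifnz at 0.234 and Ifng at 0.0453 FPKM in OAD alone. Each of these values lay under the level of 3 fragments. At this depth a transcript made by few cells would not be detectable.

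Markers of several cell types moved with the ISGs between the phases. The 7 endothelial markers, summed, were at 380 FPKM in OTD and 226 in YTD, against 86.2 in OAD and 63.7 in YAD, and 7 of 7 were lower in anagen by at least 1 in both ages. Of 12 macrophage markers 10 were lower in both ages, with sums of 839, 513, 108 and 138 FPKM in the same order. The medians of these lists, -1.69 and -1.96 for endothelial and -1.47 and -2.18 for macrophage markers in young and old mice, were close in size to those of the ISGs. Adipocyte markers had sums of 4206 FPKM in OTD and 2991 in YTD, against 1564 in OAD and 1154 in YAD, with 7 of 8 lower in young and 6 of 8 in old mice. Their medians, -1.39 in young and -1.51 in old mice, were also close to those of the ISGs. Fibroblast markers had sums of 1160, 721, 150 and 243 FPKM, with 5 of 6 lower in young and 6 of 6 in old mice, and skeletal muscle markers sums of 43368, 67958, 10438 and 7831 FPKM, with 8 of 8 and 7 of 8. The fibroblast medians were -1.32 in young and -2.90 in old mice, and the muscle medians -3.04 and -2.04. The hair matrix and shaft list went the other way, with 7 of 7 higher in anagen in both ages and sums of 192, 338, 12583 and 10126 FPKM, as did 5 of 5 melanocyte markers with 12.1, 14.1, 442 and 726 FPKM. Of 6 epidermal keratinocyte markers, 4 were higher in young and 3 in old mice, with sums of 50.1, 72.3, 1215 and 792 FPKM. The 6 neutrophil markers had medians of 0.06 in young and -0.09 in old mice, and none differed by at least 1. No endothelial, macrophage, adipocyte or fibroblast marker was at 0 in any library, and the part of these cell types in the level of the ISGs was not tested.

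Most defining markers of lymphoid cells were low. Siglech, a defining marker of plasmacytoid dendritic cells, which make much type I interferon, was at 0.349 FPKM in OTD and 0.548 in YTD, against 0.0462 in OAD and 0 in YAD. Of the 7 markers on its list, 2 were lower (Irf8 and Cox6a2, the latter also a muscle gene) and 1 higher (Bcl11a) in anagen by at least 1 in both ages, and the widely expressed Tcf4 was at 10.2 to 18.0 FPKM. The 6 T cell markers summed to 1.83, 1.33, 1.06 and 1.57 FPKM and the 5 NK cell markers to 1.91, 2.24, 0.0941 and 0.0141 FPKM, with the NK cell genes Ncr1, Gzma and Prf1 at 0 in both anagen libraries. Of the T cell sums, Lck alone gave 0.463, 0.193, 0.843 and 1.38 FPKM. Every other T cell marker lay under the level of 3 fragments in both anagen libraries.

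**Figure D3:**
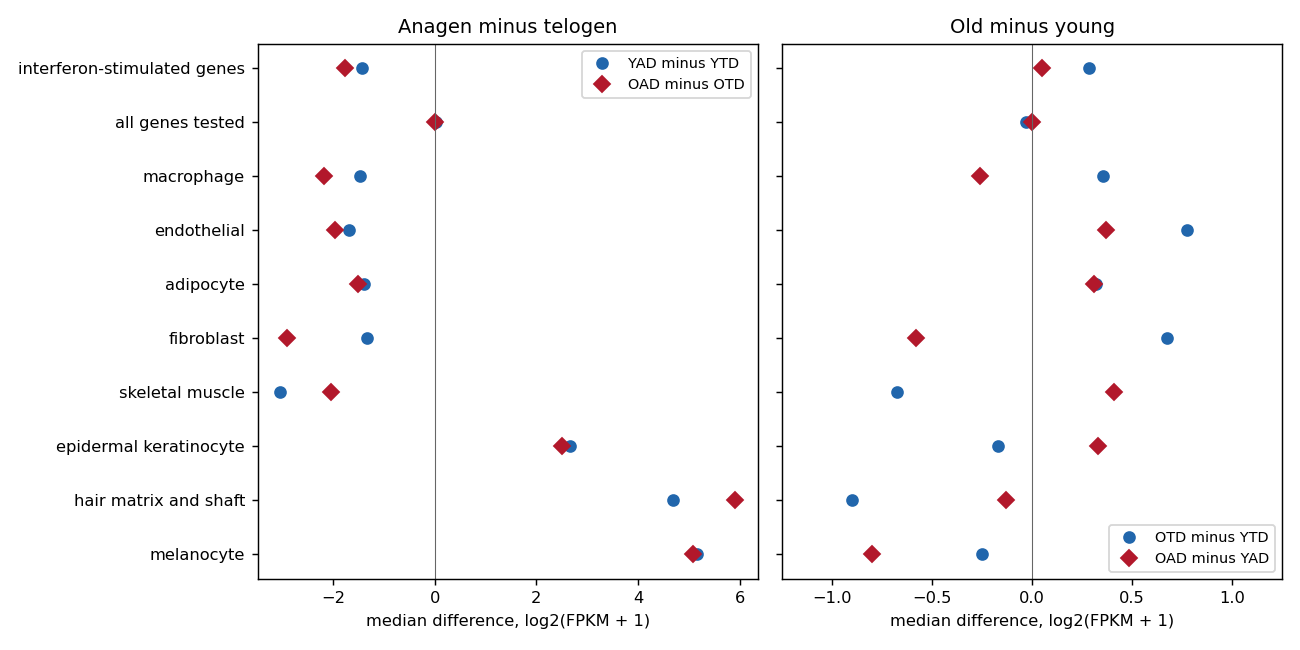
Median difference on the log2(FPKM + 1) scale of the 38 ISGs, of all genes tested and of 8 lists of cell type markers, on the left for anagen minus telogen (circles young, diamonds old) and on the right for old minus young (circles telogen, diamonds anagen). On the left the ISGs, at -1.44 and -1.76, lie among the macrophage, endothelial, adipocyte and fibroblast lists, and hair, melanocyte and keratinocyte lists lie above 0.

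Old mice were then compared with young mice within each hair phase, to see how the ISGs of dWAT differed with age. In telogen most ISGs were somewhat higher in old mice. Of the 38, 33 were above 0 and 5 below it, the median difference was 0.28 on the log2(FPKM + 1) scale against -0.03 for all genes, and no member reached a difference of 1 in either direction. The range ran from -0.70 for Oas2 to 0.97 for Xaf1.

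Of all 17230 genes tested in telogen, 1.67% were higher and 1.93% lower in OTD by at least 1. At a lower threshold of 0.58, 7 of the 38 members were higher, where 6.83% of all genes were, and 1 member was lower, where 9.41% of all genes were. The 7 were Xaf1, Iigp1, Ifit2, Ifit1, Gbp2, Ifi44 and Usp18, at 2.16-fold, 1.99-fold, 2.00-fold, 1.90-fold, 1.73-fold, 1.97-fold and 1.76-fold of the FPKM of young mice. These are genes of 4 role groups, and none of the sensors or transcription factors was among them. The 1 lower member, Oas2, was 1.98-fold higher in YTD. The other members below 0 were Ifi35 at -0.23, Irf7 at -0.13, Mx1 at -0.10 and Ifit3b at -0.02.

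By role, all 6 GTPases were higher in OTD than in YTD, from 0.28 for Gbp7 to 0.95 for Iigp1, with a median of 0.53. The IFIT family had a median of 0.56, with Ifit1 and Ifit2 at 0.78 and 0.84 but Ifit3 at 0.33. All 4 sensors and all 4 genes of the ISG15 system were above 0, with medians of 0.23 and 0.25. The genes with the highest levels differed less: Ifitm3 by 0.49, Ifi27 by 0.11 and Bst2 by 0.09. Isg15 differed by 0.08, and the 3 transcription factors by -0.13 to 0.29.

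**Figure D4:**
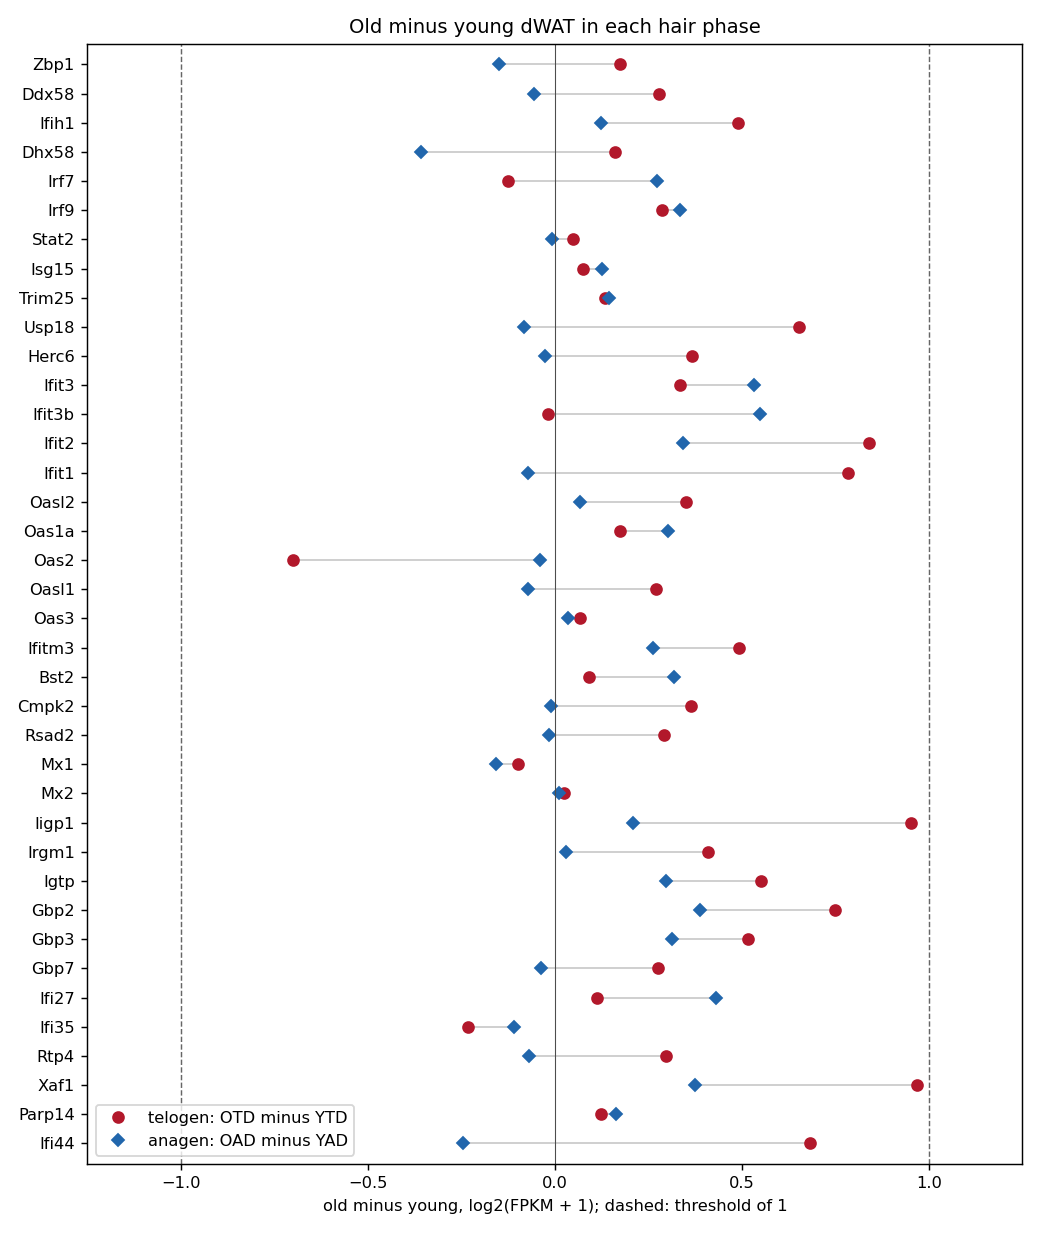
Difference between old and young mice on the log2(FPKM + 1) scale for each of the 38 ISGs in telogen (red circles, OTD minus YTD) and anagen (blue diamonds, OAD minus YAD), joined by a grey line and ordered by role, with dashed lines at a difference of 1. As deposited, the telogen points lie above 0 in 33 of 38 genes and the anagen points in 22 of 38, and no point reaches a dashed line.

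In anagen the ages were closer. Of the 38 members, 22 were above 0 and 16 below it, the median difference was 0.05 against 0.00 for all genes, and the range ran from -0.36 for Dhx58 to 0.55 for Ifit3b. No member reached 1 in either direction, where 0.727% of all genes were higher and 0.454% lower in OAD. The largest were Ifit3b, Ifit3 at 0.53 and Ifi27 at 0.43, the first at 1.13 FPKM in OAD and 0.458 in YAD. Of the 6 GTPases 5 were above 0, with a median of 0.25, and of the 4 sensors 3 were below it.

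Of the 38, 20 were higher in old mice in both phases and 3 lower in both, namely Ifi35, Mx1 and Oas2. Neither count was made over all genes. The age difference, taken with its sign as old minus young, was higher in telogen than in anagen for 26 of the 38. The median of anagen minus telogen age difference was -0.27. For each gene this gap equals, by arithmetic, the phase difference in old minus that in young mice. The 26 are therefore the same genes as those with the larger phase difference in old mice, and not a further observation. The widest such gaps were those of Ifi44 and Ifit1, at -0.93 and -0.86: Ifit1 was 1.90-fold higher in old mice in telogen and 1.17-fold higher in young mice in anagen. Their anagen values rest on few fragments, an estimated 2.8 in OAD and 8.0 in YAD for Ifi44 and 11.7 and 13.5 for Ifit1. None of these differences between phases was tested. The 2 comparisons of age use different libraries, but each shares a library with the comparisons of phase, so that the gap between phases in old mice and the age difference in telogen both rest on OTD.

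Pathway genes and markers differed with age in telogen too. Of the 38 further ISGs above 0, 34 were higher in OTD than in YTD, 3 of them by at least 1, namely Tgtp1 at 1.09, Tgtp2 at 1.26 and Ifitm1 at 1.02. The first 2 are near copies, and their fragments may have been split. The DNA sensing adaptor gene Tmem173 was at 13.6 FPKM in OTD and 6.22 in YTD, against 2.99 in OAD and 2.85 in YAD, and Socs3, a brake on cytokine signalling, at 35.7, 12.4, 7.63 and 8.02 FPKM, so that both were above 1 in telogen age difference. Endothelial markers were higher in OTD at 7 of 7, with a median of 0.78, and macrophage markers at 11 of 12, with a median of 0.35. Fibroblast markers were higher at 5 of 6, with a median of 0.67, and adipocyte markers at 6 of 8, with a median of 0.32, while all 8 muscle markers were lower, with a median of -0.67. Neutrophil markers were higher in OTD at 6 of 6, 2 of them by at least 1, and hair matrix and shaft markers lower at 7 of 7, 3 of them by at least 1. In anagen, endothelial markers were higher in OAD than in YAD at 7 of 7, with a median of 0.37, and macrophage markers at 0 of 12, with a median of -0.26. Adipocyte markers were higher in OAD at 8 of 8 and neutrophil markers at 5 of 6, 2 of the latter by at least 1, while fibroblast markers were lower at 6 of 6, with a median of -0.58. Some of the neutrophil values lay under the level of 3 fragments. These were Cxcr2 in OTD, YTD and YAD, Mmp8 in YTD, OAD and YAD, and Retnlg in YTD and YAD. The part of these cell types in the age difference of the ISGs was not tested.

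The scaling also bore on the age difference. Without the genes of the mitochondrial genome, the other genes rescaled to a common sum, the median of the members in telogen was 0.50 where that of all genes was 0.10, and Ifit1, Ifit2, Iigp1 and Xaf1 were higher in OTD by at least 1. Over all genes, 656 were then higher and 270 lower, against 287 and 333 as deposited. In anagen the members' median was -0.013 without these genes, where that of all genes was -0.12, and -0.038 in TPM, where that of all genes was -0.16. Over all genes, 104 were higher and 175 lower in OAD in TPM, against 128 and 80 as deposited. The sign of Irf7, Ifit3b and Mx1 in telogen changed without the mitochondrial genes, as did that of Isg15, Oasl2, Mx2 and Irgm1 in anagen, and in TPM that of Ifih1, Isg15, Trim25, Oasl2, Mx2 and Irgm1 changed in anagen. With the median of ratios, that of Ifit3b changed in telogen and that of Stat2 and Cmpk2 in anagen. Relative to all genes the members' median was higher in old mice by 0.30 to 0.40 in telogen and by 0.05 to 0.12 in anagen, over the 5 scalings.

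**Figure D5:**
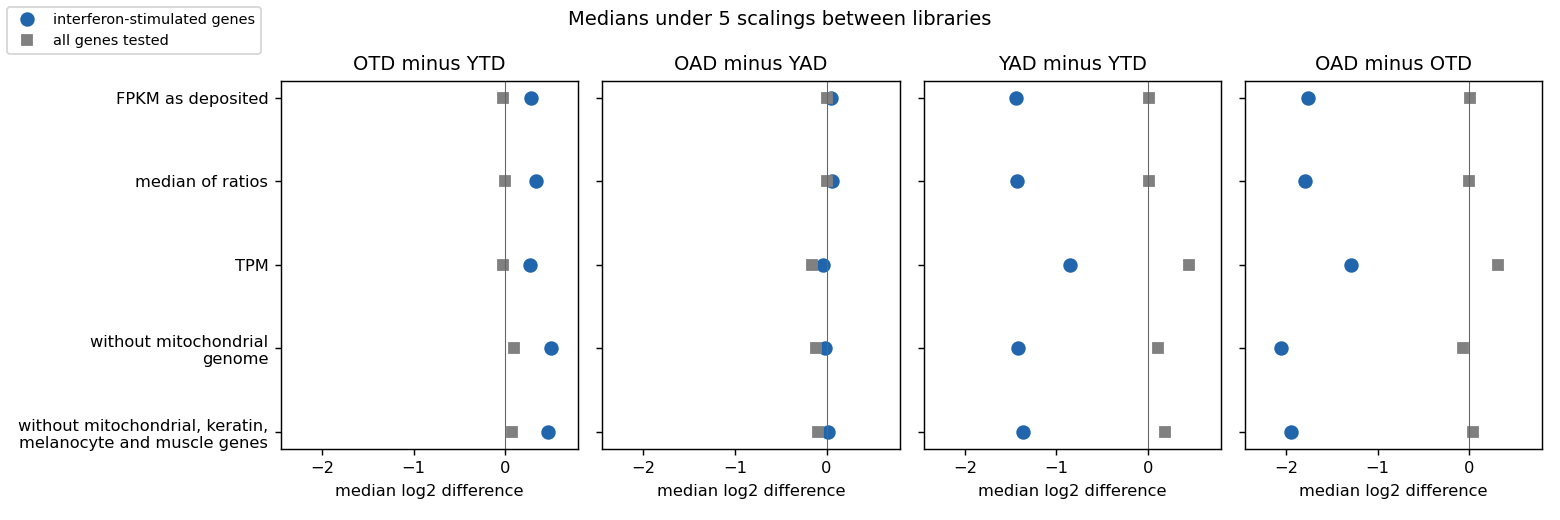
Median log2 difference, with 1 added to each value, of the 38 ISGs (blue circles) and of all genes tested (grey squares) in the 4 comparisons, under 5 ways of scaling the libraries to each other. The median of the ISGs lies to the left of that of all genes in both phase comparisons and to the right of it in both age comparisons under each scaling, by the least in OAD minus YAD as deposited, where the 2 medians are 0.05 and 0.00.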

How the data were processed

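Genes of dWAT were measured by RNA sequencing in 4 libraries, 1 per group. Per library, the authors deposited the FPKM of 22913 genes and their positions on GRCm38. The submitters' processing notes name TopHat2 and bcl2fastq, and the annotation, the counting tool and any scaling between libraries are not given in the sources used here. Of 22166 Ensembl identifiers 21750 were matched to a symbol. 97% of listed lengths are multiples of 3, and so are those of all 38 members, so they are coding lengths.

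The difference of a gene is that of log2(FPKM + 1) between 2 libraries, called at 1 or more in size, over genes above 0 in at least 1 of the 2. No test and no p-value was possible with 1 library per group. The members, roles, pathway lists and marker lists were chosen with earlier results of these data known. Full values are given for members past the threshold in any comparison, for the 10 highest by mean FPKM and for the highest of each role. Stat2 and Irf9 were added after their values were seen. Depth was estimated from features of 2000 to 4000 bases, as the median depth at which a value is 1 fragment, between 14000000 and 30000000, so the range searched bears on it. A gene's floor, the FPKM of 3 fragments, covers counting error only.

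Alternatives were pseudocounts of 0.1 and 0.01, an FPKM of at least 1, a threshold of 0.58, and scaling by the median of ratios, to TPM and without the mitochondrial genome. Leaving out keratin, melanocyte and muscle genes as well was added after seeing the data. The steps were tested on simulated data with counting error only, in which changes well past the threshold were planted in genes that were not low. Smaller changes, low genes and the spread between libraries were not covered by it. Python 3.11.15, numpy 2.4.6, pandas 2.3.3 and matplotlib 3.10.9 were used. Gbp5, Gbp6, Trac and Flg, which stand in the lists, were not analysed here, and 1 gene of the pathway lists is not reported here.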

Additional observations from a re-analysis of the deposited data

Results flagged for a closer look

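No member of the 38 had age differences of opposite sign in the 2 hair phases that were both at least 0.25 in size on the log2(FPKM + 1) scale. Among the pathway genes 3 did, each with 1 library per group, so the difference between the phases was not tested. Ifngr2, a chain of the interferon gamma receptor, was at 20.9 FPKM in OTD and 33.9 in YTD but 14.3 in OAD and 10.4 in YAD, and its age difference in anagen minus that in telogen was 1.1. Ifi204, a DNA-binding member of the p200 family, was at 14.6 and 9.31 FPKM in telogen and 1.11 and 1.70 in anagen in the same order of ages, a value of -0.95. Tor3a was at 11.1 and 8.59 FPKM in telogen and 4.89 and 7.29 in anagen, a value of -0.83.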

How the results depend on the processing

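With 1 library per group, no spread between replicates is known, and no library could be left out. The members' counts called were 0 for each age comparison, 30 for the phases in young and 31 in old mice as deposited. No paired analysis was possible because the result comes from no test and each group has 1 library. With a pseudocount of 0.1, 1 member was called in each age comparison. Of all 17230 genes in telogen 1081 were then higher and 1063 lower, and of all 17613 in anagen 577 and 532. With 0.01, 2 members were called in each, against 1800 and 1645 of all genes in telogen and 1236 and 1199 in anagen. Both pseudocounts called 34 members lower between phases in young and 36 in old mice. Of all genes 24.3% and 23.8% were lower with 0.1, and 27.6% and 27.3% with 0.01. The phase medians were -2.10 in young and -2.30 in old mice with 0.1, and -2.28 and -2.57 with 0.01. With an FPKM of at least 1 the anagen age median was 0.19, over 24 members. A threshold of 0.58 called 8 members in the telogen age comparison, where 1176 of all genes were higher and 1621 lower. The median of ratios called 2 there, where 337 of all genes were higher and 300 lower. In TPM, 17 members were called in young mice, the phase medians were -0.85 and -1.29, the anagen age median turned to -0.038, and the median gap between the 2 age differences was -0.38. Without the mitochondrial genome the telogen age count was 4 and its median 0.50, the anagen age median turned to -0.013, the phase median in old mice was -2.06 and the median gap -0.59. The age medians of all genes were then 0.10 in telogen and -0.12 in anagen. Keratin, melanocyte and muscle genes were left out too in an alternative chosen after seeing the data. The telogen age count was then 4 and its median 0.46, and the phase median in old mice was -1.94. Of all genes 637 were higher and 287 lower in telogen. The TPM shift lies in the sums, which were 1249613 FPKM in OTD and 693715 in YAD, and the cause of the other moves was not tested. Of the 30 and 31 members called between phases, 13 and 7 were under 1 in TPM, and no called member changed direction under any of these alternatives. The depth limits the members under 1 FPKM, and Ifi44 in OAD and Oas3 in YAD lay under 3 fragments.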
